A study of Mus musculus with 44 samples.

Results

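The response of bone marrow to 2-butoxyethanol (2BE), a glycol ether solvent known to lyse red cells in rodents, was set against the response of spleen at 7 d in B6C3F1 mice. The members were the 20 of 44 arrays of the series whose labels name bone marrow or spleen and 7 d. They form 4 groups of 5 arrays: vehicle bone marrow, 2BE bone marrow, vehicle spleen and 2BE spleen, all of the hybrid strain B6C3F1. The titles call the arms vehicle and 2BE, while the treatment field calls the same arms control and reduced oxygen. Dose, route, age and sex of the mice are not given in the sources used here. Marrow came from the right humerus and its RNA was prepared with a bone marrow kit, whereas spleen RNA came from part of a cross-section on standard columns. The labels number the arrays within each group and do not say which came from separate mice, so p-values measure the spread between these arrays, which may be technical in part.

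Bone marrow is the main site where adult mice make red cells and B cells. The mouse spleen keeps a smaller erythroid compartment that can expand when red cells are lost, and it also houses mature B cells, T cells and natural killer (NK) cells. Erythroid progenitors need erythropoietin, transferrin iron and the factors GATA1 and KLF1, while B cell precursors rearrange their immunoglobulin genes in marrow and leave for the spleen as naive B cells.

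The response of each gene in an organ was the 2BE mean minus the vehicle mean on the log2(intensity + 1) scale, and the difference was the marrow response minus the spleen response. A difference above 0 means that the response was more positive, or less negative, in marrow. A gene was called when its adjusted p from limma (Benjamini-Hochberg over 18193 genes) was under 0.05. Levels were not tested between organs, since the 2 sets of arrays had different medians (86.2 to 89.6 in marrow and 109.4 to 111.7 in spleen, as intensity). In whole tissue, fewer cells of a type, less RNA per cell and a smaller share of the total RNA cannot be told apart. A list that was lower with 2BE therefore does not by itself show a loss of its cells.

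Some arrays stood apart within the spleen groups. Spleen vehicle replicate 1 had the lowest level of the red cell membrane list, at 7.81 against 8.98 to 9.22 on the other vehicle arrays. Spleen 2BE replicates 2 and 5 departed furthest from their group's mean, with a root mean square deviation of 0.214 and 0.219 over all genes against 0.109 to 0.136 for the rest of that group. Spread was lower in marrow, at 0.087 to 0.135. Of the 221 calls on genes named here, 32 were lost under at least 1 alternative setting or left-out array, and the weakest are given with their counts. A fit without spleen vehicle replicate 1 and spleen 2BE replicate 5, called the reduced fit here, was added after the data were seen. It keeps spleen 2BE replicate 2. Without that array alone 7254 differences were called, against 9456 without spleen 2BE replicate 5 alone. Marrow counts are also given from a fit of the 10 marrow arrays alone, because the fit to all 20 arrays shares 1 estimate of spread over both organs.

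The spleen responded in far more genes than the marrow. In marrow 1186 of 18193 genes were higher with 2BE (6.52%) and 1161 were lower (6.38%). In spleen 6366 were higher (35.0%) and 6101 were lower (33.5%). The largest change in either direction was 2.31 log2 units in marrow and 4.19 in spleen. The difference itself was called for 7958 genes, with 4485 above 0 (24.7%) and 3473 below 0 (19.1%). The median gene lay near 0 in all 3 comparisons, at 0.01 in marrow, 0.05 in spleen and -0.03 for the difference. In the fit to the 10 marrow arrays alone, 3681 marrow genes were called.

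Most of what the marrow did, the spleen did too. Of the 2347 genes called in marrow, 2021 were called the same way in spleen, which was 86.1% of the marrow calls and 16.2% of the spleen calls. They comprised 1045 genes higher in both organs and 976 lower in both. The spleen change was the larger one for 1832 of the 2021. Opposite calls were few, with 27 genes higher in marrow and lower in spleen and 41 the other way round. Across all genes the 2 responses correlated with Pearson's r of 0.67 and Spearman's rho of 0.67. This is a description over genes, which are not independent replicates.

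**Figure D1:**
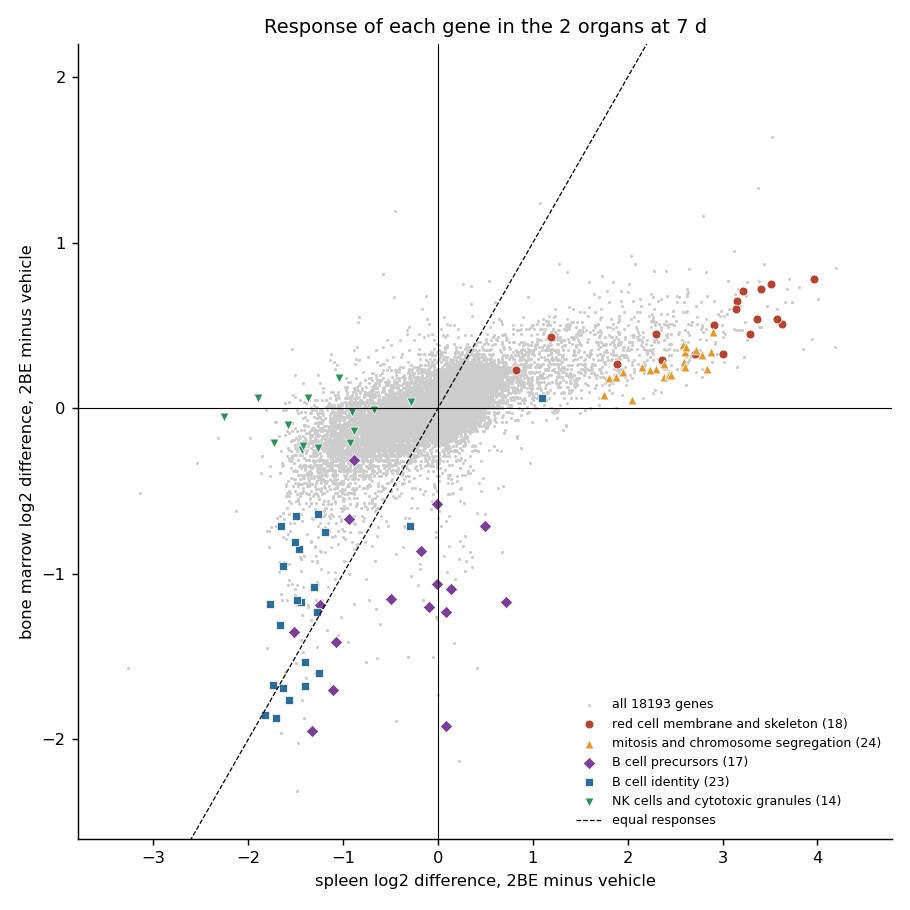
Response of each of 18193 genes in spleen (horizontal axis) and bone marrow (vertical axis), each as the log2 difference of 2BE minus vehicle at 7 d with 5 arrays a group; coloured marks are members of 5 gene lists and the dashed line marks equal responses. The 18 red cell membrane genes spread to 3.96 in spleen but no higher than 0.78 in marrow. Most B cell identity genes lie below 0 in both organs, and the NK genes lie near 0 in marrow and below 0 in spleen.

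The lists divided the organs in different ways. The membrane, haem, globin, transcription factor, maturation and cell division lists had medians above 0 in both organs, and the larger one in spleen. B cell identity had medians below -1 in both organs, B cell precursors had the lower median in marrow, and the T cell, NK, megakaryocyte, stromal and endothelial lists had the lower median in spleen. The counts behind these medians follow list by list. Each is to be read beside the shares called over all genes. These were 6.52% higher and 6.38% lower in marrow, and 35.0% higher and 33.5% lower in spleen. For the difference they were 24.7% above 0 and 19.1% below 0.

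**Figure D2:**
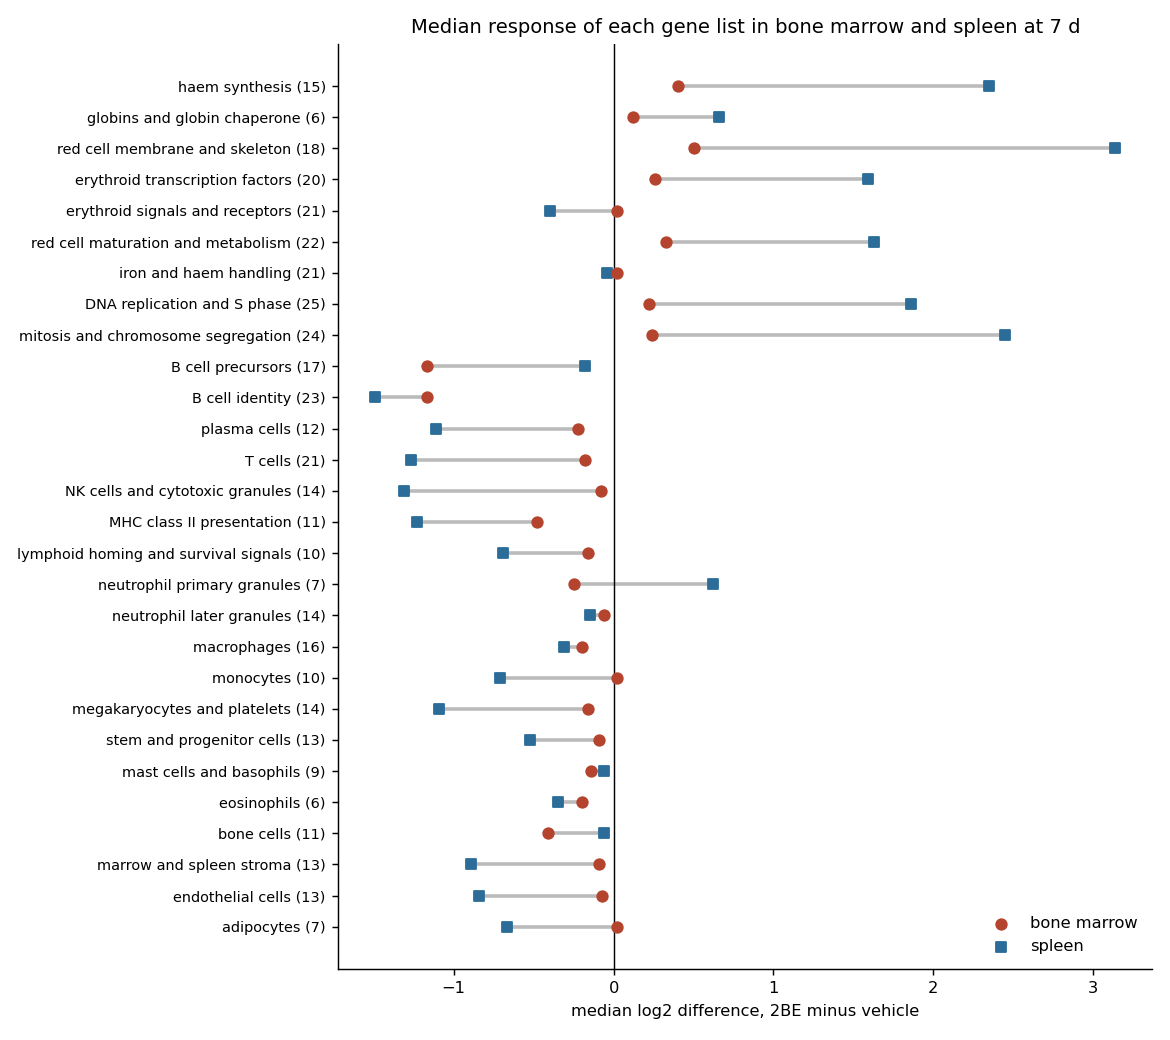
Median log2 difference (2BE minus vehicle, 7 d) of the measured members of the gene lists in bone marrow (circles) and spleen (squares), with the number of measured members in brackets. The red cell membrane list reached 3.14 in spleen against 0.50 in marrow, and B cell precursors stood at -1.17 in marrow against -0.18 in spleen.

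Genes of the red cell membrane and its spectrin skeleton rose throughout in spleen and in part in marrow. All 18 measured members were higher in 2BE spleen, with a median of 3.14 log2 units (8.84-fold), and 7 were higher in 2BE marrow, with a median of 0.50 (1.42-fold). The marrow count was 18 of 18 in the fit of marrow arrays alone and 17 without spleen vehicle replicate 1. Differences lay below 0 for all 18, with a median of -2.52. In the reduced fit all 18 were below 0 as well, with a median of -2.35.

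Kel encodes the Kell blood group protein of the red cell surface. Its level on vehicle marrow arrays 1 to 5 was 11.20, 11.77, 11.51, 11.68 and 11.64, and on 2BE marrow arrays 12.22, 12.11, 11.93, 12.12 and 11.95. On vehicle spleen arrays it was 7.64, 9.28, 9.37, 9.38 and 9.22, and on 2BE spleen arrays 12.68, 12.73, 12.64, 12.73 and 12.27. The arms did not overlap in either organ, and vehicle spleen was far below the other 3 groups. The response was 0.51 ± 0.22 (SE) in marrow (adjusted p = 0.148, or 0.00197 in the fit of marrow arrays alone) and 3.63 ± 0.22 in spleen, a 12.4-fold rise (adjusted p = 4.76e-12). The difference was -3.12 ± 0.32 (adjusted p = 7.37e-08), and -2.87 in the reduced fit.

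Other members showed the same division. Epb42, which encodes protein 4.2 of the skeleton, rose by 3.96 in spleen and gave 0.78 in marrow (adjusted p = 0.102 in marrow). Icam4, an adhesion protein of erythroblasts, rose by 3.57 in spleen and gave 0.54 in marrow (adjusted p = 0.131 in marrow). Slc4a1, the anion exchanger band 3, rose by 2.36 in spleen and differed by 0.29 in marrow (adjusted p = 0.545). In the fit of marrow arrays alone all of these were called, with adjusted p = 2.77e-05 for Epb42, 0.00134 for Icam4 and 0.00523 for Slc4a1.

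The 250 bases upstream of the start of Kel, Icam4 and Klf1 are shown because these genes differed strongly between the organs and carry the letters AGATAA or TGATAA, the core recognised by GATA factors. They are RefSeq sequences of build GRCm38.p6, written 5′ to 3′ on the gene's own strand, with matches on either strand in capitals, and they were picked after the matches were seen. Kel lies at chr6:41704326-41704575 on the minus strand, Icam4 at chr9:21029182-21029431 on the plus strand and Klf1 at chr8:84901732-84901981 on the plus strand.
Kel: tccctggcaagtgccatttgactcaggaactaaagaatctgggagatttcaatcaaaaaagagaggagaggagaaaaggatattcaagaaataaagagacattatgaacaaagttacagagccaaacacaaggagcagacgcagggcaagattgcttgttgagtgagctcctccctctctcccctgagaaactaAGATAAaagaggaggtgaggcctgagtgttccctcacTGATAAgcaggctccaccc
Icam4: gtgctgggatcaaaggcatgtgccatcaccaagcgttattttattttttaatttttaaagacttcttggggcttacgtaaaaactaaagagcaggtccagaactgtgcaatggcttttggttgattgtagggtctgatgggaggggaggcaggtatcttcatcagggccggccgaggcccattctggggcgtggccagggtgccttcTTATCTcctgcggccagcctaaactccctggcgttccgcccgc
Klf1: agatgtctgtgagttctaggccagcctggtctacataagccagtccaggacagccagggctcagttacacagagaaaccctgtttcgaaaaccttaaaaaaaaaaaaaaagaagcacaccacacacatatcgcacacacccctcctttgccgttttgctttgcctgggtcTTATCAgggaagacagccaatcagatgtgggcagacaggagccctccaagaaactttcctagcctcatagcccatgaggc
Kel held 2 such matches between 56 and 14 bases upstream of the start, Icam4 1 match at 43 to 38 and Klf1 1 match at 80 to 75. Of the 13 membrane list genes with a promoter in the table, 6 (46.2%) held AGATAA or TGATAA on either strand, against 17% of 27025 promoters of the same length. CACCC, the core of KLF1 recognition, stood in 12 of the 13 (92.3%) against 51.3% of all. In the haem synthesis list the shares were 2 of 13 (15.4%) for the GATA letters and 9 of 13 (69.2%) for CACCC. Outside the erythroid lists, CACCC ran from 2 of 8 mast cell and basophil promoters (25%) to 5 of 5 eosinophil and 5 of 5 skeletal muscle promoters. The GATA letters ran from 0 of 9 endothelial promoters to 4 of 6 pancreatic acinar promoters (66.7%). High shares were thus not particular to erythroid lists. A match is a description of letters and not a bound site.

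The haem synthesis list had the same order. All 15 measured members rose in spleen, with a median of 2.35 (5.09-fold), and 8 rose in marrow, with a median of 0.40 (1.32-fold). In the fit of marrow arrays alone 13 of 15 were called. The difference was below 0 for all 15, with a median of -1.83, and -1.76 in the reduced fit. Abcb10, a mitochondrial transporter of red cell precursors, rose by 0.50 in marrow (adjusted p = 0.00387) and 2.78 in spleen (adjusted p = 6.94e-15). Urod, Cpox and Alad, enzymes of the middle of the pathway, rose by 2.59, 2.68 and 2.43 in spleen. Their marrow responses were 0.40, 0.52 and 0.36, of which Cpox alone was called (lost under 5 of 33 alternatives). In the fit of marrow arrays alone Urod and Alad were called as well (adjusted p = 0.00407 and 0.00123).

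Alas2, the rate-limiting enzyme of erythroid haem synthesis, gave 13.41, 13.78, 13.59, 13.68 and 13.72 on vehicle marrow arrays and 13.73, 13.91, 13.80, 13.81 and 13.75 on 2BE marrow arrays. In spleen it went from 12.28, 13.24, 13.25, 13.13 and 13.32 with vehicle to 14.18, 14.23, 14.17, 14.33 and 13.92 with 2BE. The marrow arms overlapped and the spleen arms did not. The spleen response was 1.12 ± 0.14 (adjusted p = 2.91e-07) and the marrow response 0.16 ± 0.14 (adjusted p = 0.488). Alas2 lay at or above the 98.7 percentile of probe sets on every array. Of the globin genes, 6 of 6 measured members were higher in spleen and 1 in marrow, with 3 differences below 0. The 1 in marrow was Hbb-bh1, an embryonic beta-like chain, at 0.44 ± 0.14 (adjusted p = 0.0419). That count became 0 without any of marrow vehicle replicates 1, 3, 4 and 5, marrow 2BE replicates 2 to 5 or spleen vehicle replicate 5, and 2 without marrow 2BE replicate 1 or spleen vehicle replicate 1. The count of differences became 1 without marrow 2BE replicate 1 or 4, spleen vehicle replicate 5 or spleen 2BE replicate 1 or 4. Hbb-b2, an adult beta chain, rose by 0.88 in spleen and differed by 0.45 in marrow (adjusted p = 0.0766, or 0.0194 in the fit of marrow arrays alone). Its difference of -0.42 did not pass the test (adjusted p = 0.152). Its other probe set gave -0.22 in spleen. Hba-a1 lay between the 16.3 and 29.7 percentiles of probe sets, and Hbb-b1 and Ahsp were not analysed here.

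Erythroid transcription factors did not all move one way. In spleen 16 of 20 members rose and 4 fell, with a median of 1.59. In marrow 6 rose and 2 fell, with a median of 0.26, and the fit of marrow arrays alone called 13 higher and 3 lower. Without spleen vehicle replicate 1 the marrow counts were 11 and 2. Differences lay below 0 for 16 members, above 0 for 1 and not called for 3.

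Klf1, the factor that drives adult globin and membrane genes, gave 12.21, 12.63, 12.42, 12.48 and 12.41 on vehicle marrow arrays and 13.01, 12.90, 12.91, 12.91 and 12.78 on 2BE marrow arrays. In spleen the vehicle arrays gave 8.65, 10.16, 10.29, 10.57 and 9.96 and the 2BE arrays 13.27, 13.08, 13.15, 13.25 and 12.88. Every 2BE array was above every vehicle array of its organ. The response was 3.20 ± 0.22 in spleen (9.2-fold, adjusted p = 2.17e-11) and 0.47 ± 0.22 in marrow (adjusted p = 0.162, or 0.000408 in the fit of marrow arrays alone). Gata1, the master regulator of the lineage, rose in both organs, by 0.47 ± 0.13 in marrow (adjusted p = 0.0153) and 2.60 ± 0.13 in spleen. Nfe2, Hemgn and Sox6 rose by 3.03, 2.89 and 3.66 in spleen. Their marrow responses were 0.32, 0.28 and 0.64, none of them called in the fit to all arrays. In the fit of marrow arrays alone each was called (adjusted p = 0.00122, 0.00618 and 4.09e-05).

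Among the members that fell was Gata2. Gata2, which acts in progenitors before GATA1, fell by 0.29 in marrow and by 0.32 in spleen, and the difference of 0.03 was not called (adjusted p = 0.818). Bcl11a, a repressor of embryonic globins that is also active in B cells, fell by 1.02 in spleen and gave -0.26 in marrow (adjusted p = 0.308), but its other 6 probe sets gave spleen responses from -0.82 to 0.09. Both were picked after their values were seen.

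Myb, which sustains progenitors of the red cell and B cell lines, moved in opposite directions. Its vehicle marrow arrays gave 12.12, 12.03, 12.30, 12.23 and 12.16 and 2BE marrow arrays 11.59, 11.15, 11.39, 11.41 and 11.76. Vehicle spleen arrays lay between 9.75 and 10.34, and 2BE spleen arrays gave 10.57, 10.37, 10.47, 10.47 and 10.67. The arms were apart in each organ, with 2BE lower in marrow and higher in spleen. The response was -0.71 ± 0.10 in marrow (adjusted p = 7.23e-05) and 0.50 ± 0.10 in spleen (adjusted p = 0.000224), and the difference was -1.21 ± 0.15 (adjusted p = 9.19e-07).

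Receptors for erythropoietin and iron rose in both organs. Epor, the erythropoietin receptor, rose by 0.50 ± 0.12 in marrow (1.41-fold, adjusted p = 0.00598) and 2.49 ± 0.12 in spleen (5.64-fold, adjusted p = 5.32e-14). Tfr2, which binds holotransferrin and associates with that receptor, rose by 0.41 in marrow (adjusted p = 0.0165) and 1.86 in spleen. Tfrc, the transferrin receptor that brings iron into erythroblasts, gave 12.83, 13.04, 12.92, 13.06 and 12.96 on vehicle marrow arrays and 13.62, 13.55, 13.63, 13.61 and 13.62 on 2BE marrow arrays.
In spleen Tfrc gave 10.39, 11.33, 11.59, 11.78 and 11.32 with vehicle and 13.92, 13.89, 14.00, 13.83 and 13.69 with 2BE. The arms were apart in both organs. The rise was 0.64 ± 0.16 in marrow (adjusted p = 0.00789) and 2.59 ± 0.16 in spleen (adjusted p = 3.05e-12), with a difference of -1.94 ± 0.22 (adjusted p = 3.75e-07).

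The rest of the signal list did not follow those receptors. Of its 21 measured members 7 were higher and 0 lower in marrow, with a median of 0.02. In spleen 6 were higher and 12 lower, beside 35.0% and 33.5% of all genes, with a list median of -0.40. Over the median of each gene's probe sets, the spleen median moved to -0.13. Bmp4, a signal of stress erythropoiesis in spleen, fell by 0.50 in spleen (adjusted p = 1.06e-05) and gave -0.22 in marrow (adjusted p = 0.0755). Kit, the stem cell factor receptor, gave -0.16 in spleen (adjusted p = 0.0364, lost under 10 of 33 alternatives and 0.103 in the spleen arrays alone) and 0.02 in marrow (adjusted p = 0.899). Erfe was not analysed here.

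Socs3, a feedback inhibitor of JAK-STAT signalling, rose in marrow and not in spleen. Vehicle marrow arrays gave 6.98, 6.55, 6.60, 7.04 and 6.54 and 2BE marrow arrays 7.18, 8.46, 7.72, 7.92 and 8.36. The vehicle spleen arrays gave 8.82, 8.93, 8.39, 9.17 and 9.06 and 2BE spleen arrays 7.53, 7.92, 8.70, 8.41 and 9.58. The marrow arms were apart, while the 2BE spleen arrays ran from below to above the vehicle range. The response was 1.19 ± 0.28 in marrow (2.27-fold, adjusted p = 0.00655) and -0.45 ± 0.28 in spleen (adjusted p = 0.158), and the difference was 1.63 ± 0.40 (adjusted p = 0.00204). Another 2 probe sets of the gene gave differences of 0.73 to 1.66.

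**Figure D3:**
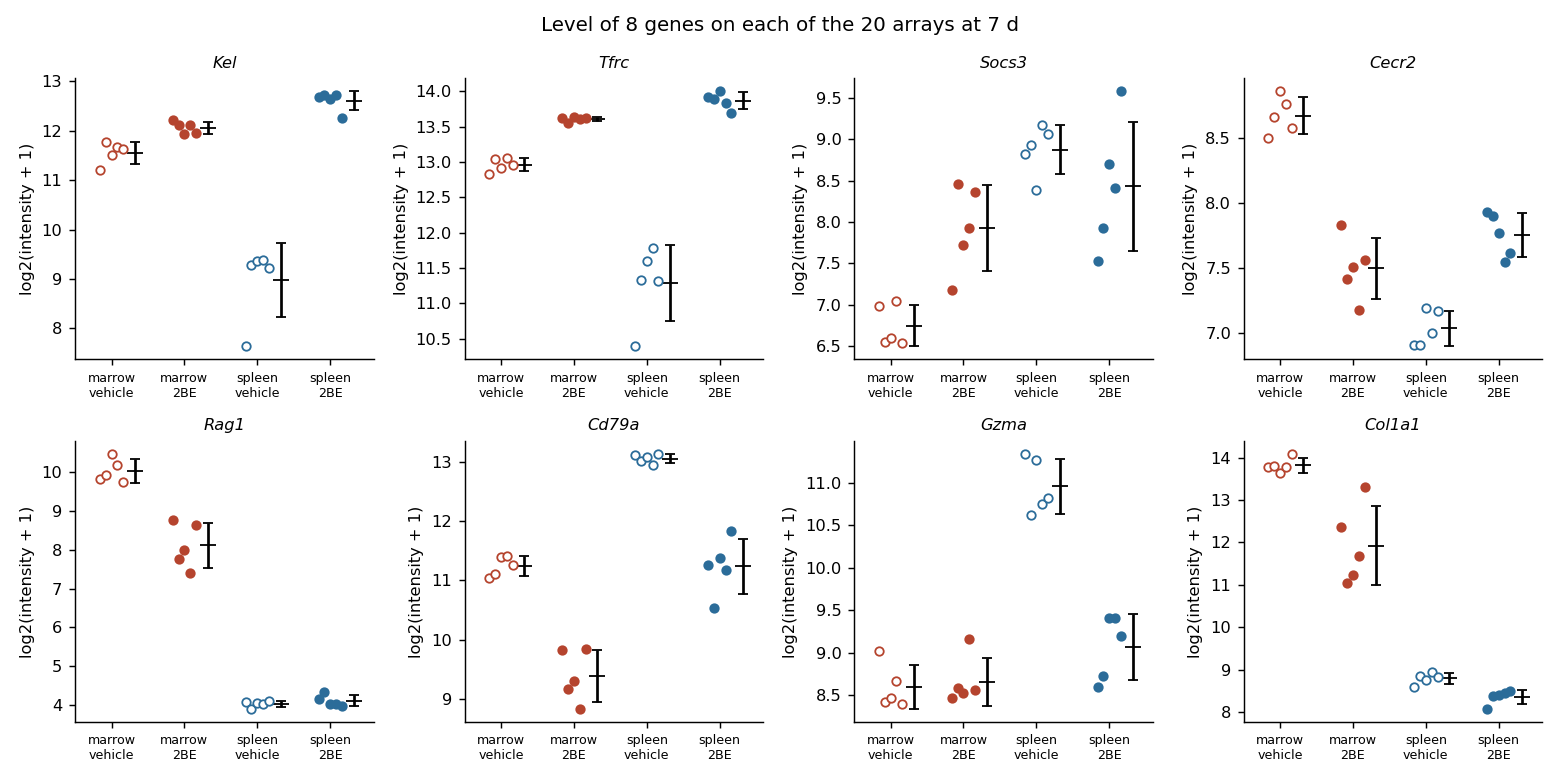
Level of 8 genes as log2(intensity + 1) on each of the 20 arrays, with open circles for vehicle, filled circles for 2BE and black marks for the mean ± SD of 5 arrays. Kel and Tfrc have 2BE arrays above vehicle arrays in both organs, with the wider gap in spleen, Socs3 rises in marrow, Cecr2 falls in marrow and rises in spleen, Rag1 falls in marrow where spleen sits near 4, Cd79a falls in both, Gzma falls in spleen, and Col1a1 falls in marrow with 2BE replicate 5 at 13.32.

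Genes of red cell maturation and metabolism also had the larger response in spleen. In spleen 21 of 22 members rose and 0 fell, with a median of 1.63 (3.09-fold). In marrow 9 rose and 0 fell, with a median of 0.33 (1.26-fold), and 17 rose in the fit of marrow arrays alone. The marrow count was 4 without marrow vehicle replicate 1 or without replicate 3, 5 without marrow 2BE replicate 1 or 4, and 16 without spleen vehicle replicate 1. The difference was below 0 for 20. Trim10, a ubiquitin ligase of terminal erythroid cells, and Slc43a1, an amino acid transporter, rose by 3.26 and 3.18 in spleen. The marrow response of Trim10 was 0.41 (adjusted p = 0.23, or 0.00611 in the fit of marrow arrays alone). That of Slc43a1 was 0.62 (adjusted p = 0.0227, lost under 4 of 33 alternatives).

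Iron and haem handling showed no shared direction. In spleen 8 of 21 members rose and 8 fell, beside 35.0% and 33.5% of all genes. In marrow 4 rose and 2 fell, beside 6.52% and 6.38% of all genes. Slc39a8 and Slc11a2, which carry metal ions across membranes, rose by 2.08 and 1.71 in spleen and by 0.87 and 0.37 in marrow. Hmox1, the enzyme that opens the haem ring, fell in marrow. Its vehicle marrow arrays gave 10.65, 10.95, 10.70, 10.67 and 10.97 and 2BE marrow arrays 10.07, 9.68, 9.95, 9.99 and 10.06. Vehicle spleen arrays gave 11.79, 11.23, 11.59, 11.10 and 11.10 and 2BE spleen arrays 11.40, 11.10, 10.91, 10.78 and 10.80. The marrow arms were apart and the spleen arms overlapped. The response was -0.84 ± 0.13 in marrow (adjusted p = 0.000157) and -0.37 ± 0.13 in spleen (adjusted p = 0.0176), and the difference was -0.47 ± 0.18 (adjusted p = 0.0427). The spleen call was lost without spleen vehicle replicate 1 (-0.26, adjusted p = 0.0694), without spleen vehicle replicate 3 (-0.31, adjusted p = 0.0531), without spleen 2BE replicate 4 (-0.31, adjusted p = 0.0533) and in the reduced fit (-0.21, adjusted p = 0.143). The difference lost its call under 11 of 32 alternatives, with a range of -0.63 to -0.37 and adjusted p-values up to 0.0906, and was -0.63 in the reduced fit (adjusted p = 0.00474).

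Cell division genes rose throughout in spleen. All 24 measured mitosis genes were higher in 2BE spleen, with a median of 2.45 (5.46-fold). None of the 24 was called in marrow by limma over all 20 arrays, with a median of 0.24 (1.18-fold), and 11 were higher at an unadjusted p under 0.05. In the fit of the marrow arrays alone 22 of 24 were higher, and 14 were without spleen vehicle replicate 1. Leaving out spleen vehicle replicate 2, spleen 2BE replicate 2 or spleen 2BE replicate 5 gave 1, 2 and 4. Differences lay below 0 for all 24, with a median of -2.23, and -2.14 in the reduced fit. Ccnb2 (cyclin B2), Ect2, Kif11 and Prc1, which act in mitosis and cytokinesis, rose by 2.84, 2.90, 2.88 and 2.78 in spleen. Their marrow responses were 0.24, 0.46, 0.34 and 0.32, none of them called in the fit to all 20 arrays. In the fit of marrow arrays alone each was called (adjusted p = 0.0131, 0.00029, 0.00144 and 0.00076).

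The S phase list had the same order. All 25 members rose in spleen, with a median of 1.86 (3.64-fold), and 7 rose in marrow, with a median of 0.22 (1.16-fold). The marrow count was 18 in the fit of marrow arrays alone and 12 without spleen vehicle replicate 1. Leaving out 1 array of a marrow group gave 3 or 4 for 7 of those arrays, namely vehicle replicates 1, 3, 4 and 5 and 2BE replicates 1, 3 and 4. The difference was below 0 for all 25, with a median of -1.60.
Tk1, the thymidine kinase of S phase, gave 10.76, 10.91, 10.76, 10.87 and 10.87 on vehicle marrow arrays and 11.29, 11.22, 11.25, 11.26 and 11.17 on 2BE marrow arrays. In spleen Tk1 gave 8.74, 9.11, 8.96, 9.17 and 9.09 with vehicle and 11.50, 11.51, 11.13, 11.33 and 11.20 with 2BE. The arms were apart in both organs. The rise was 0.40 ± 0.08 in marrow (adjusted p = 0.00155) and 2.32 ± 0.08 in spleen (4.99-fold, adjusted p = 3.09e-15). Ccne2 and Cdc6, which start replication, rose by 3.25 and 3.17 in spleen. In marrow Ccne2 gave 0.68 (adjusted p = 0.0271, lost under 5 of 33 alternatives) and Cdc6 gave 0.47 (adjusted p = 0.0438, lost under 15 of 33). Mki67, the Ki-67 proliferation antigen, rose by 2.38 in spleen and gave 0.27 in marrow (adjusted p = 0.35, or 0.00172 in the fit of marrow arrays alone).

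The means of the mitosis and membrane lists placed the 2 organs close to each other after 2BE. That was not so for every list. The B cell identity mean was 8.64 to 9.13 in 2BE marrow and 9.89 to 11.04 in 2BE spleen. The mitosis list mean was 8.13 to 9.06 on vehicle spleen arrays and 10.95 to 11.37 on 2BE spleen arrays, beside 10.80 to 10.96 and 11.12 to 11.17 in marrow. The membrane list mean was 11.42 to 11.84 in 2BE spleen and 11.17 to 11.35 in 2BE marrow, against 7.81 to 9.22 and 10.55 to 10.95 with vehicle. These levels are set side by side as values, with no test, because the arrays of the organs differed in their medians.

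**Figure D4:**
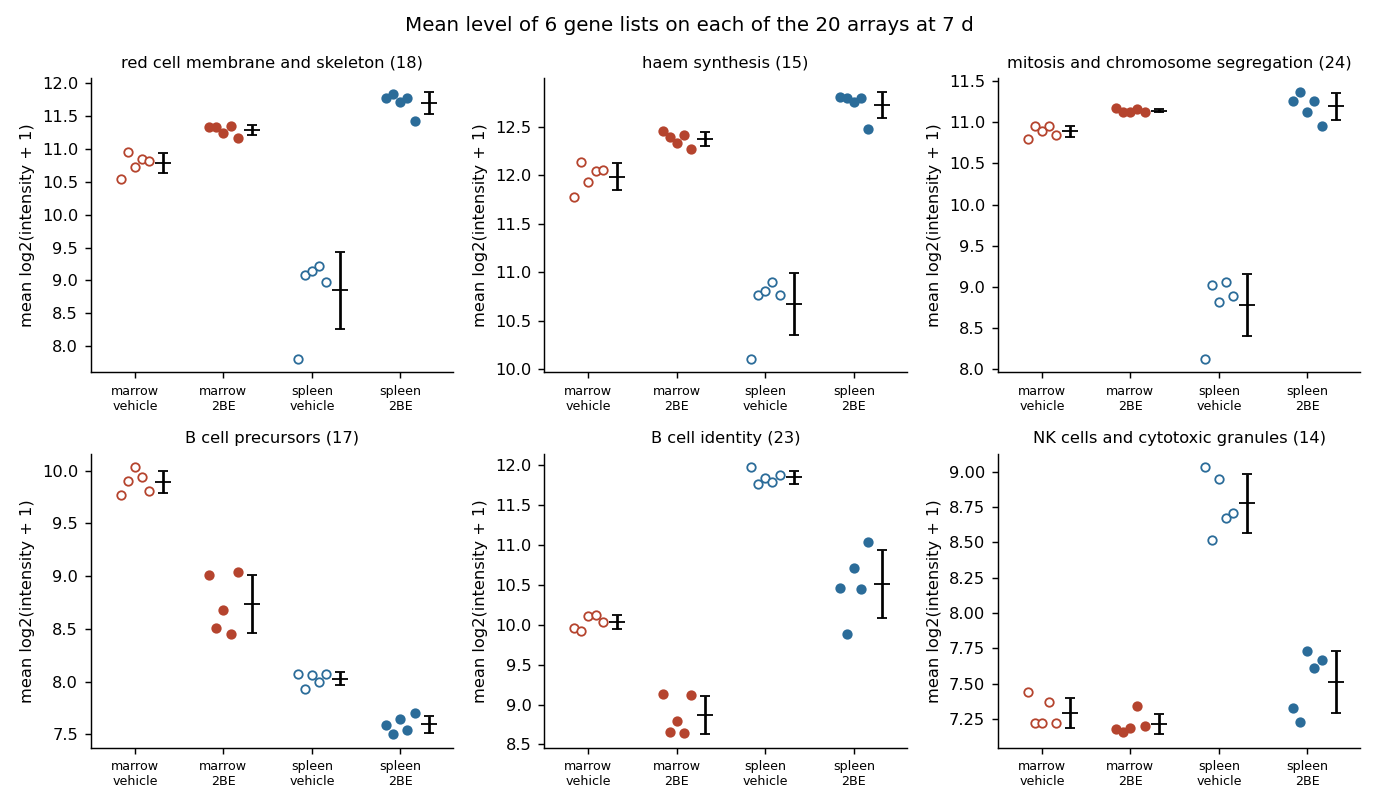
Mean log2(intensity + 1) of 6 gene lists on each of the 20 arrays (open circles vehicle, filled circles 2BE, black marks mean ± SD of 5 arrays, number of genes in brackets). The 3 erythroid and division lists climb from a low vehicle spleen, where replicate 1 is lowest, B cell precursors fall from 9.77 to 10.03 to 8.45 to 9.04 in marrow, and the NK list lies far apart between the spleen arms and close together between the marrow arms.

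Few genes rose by at least 2-fold in marrow. Only 5 genes were called and at least 2-fold higher there, against 885 in spleen. Plek2, a pleckstrin family protein of late erythroblasts, had the largest rise of all genes in marrow. Vehicle marrow arrays gave 6.57, 6.98, 6.55, 6.95 and 6.71 and 2BE marrow arrays 8.44, 8.28, 8.33, 8.65 and 8.25. The vehicle spleen arrays gave 5.08, 5.59, 5.67, 5.67 and 5.31 and 2BE spleen arrays 8.98, 8.71, 9.04, 9.48 and 8.73. The arms were more than 1 unit apart in both organs. Plek2 rose by 1.64 ± 0.14 in marrow (3.12-fold, adjusted p = 2.32e-07) and 3.52 ± 0.14 in spleen (11.5-fold, adjusted p = 6.44e-15), and the difference was -1.88 ± 0.19.

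Apol11b, an apolipoprotein L gene, and Mt2, a metallothionein, also rose in both organs, by 1.33 and 0.92 in marrow and by 3.37 and 2.03 in spleen. Syt14, a synaptotagmin, rose by about the same amount in each, by 1.24 ± 0.14 in marrow and 1.08 ± 0.14 in spleen, and its difference of 0.16 ± 0.20 was not called (adjusted p = 0.527). Ugt8a, a galactosyltransferase of sphingolipid synthesis, had the largest difference of all genes, at -3.81 ± 0.17 (adjusted p = 2.28e-12). It rose by 4.18 in spleen (18.2-fold) and gave 0.37 in marrow (adjusted p = 0.0389, lost under 10 of 33 alternatives with values up to 0.0931), and another probe set of the gene gave a difference of -0.89.

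B cell precursor genes fell in marrow. All 17 measured members were lower in 2BE marrow, with a median of -1.17 (2.25-fold lower), and this count was 17 in the fit of marrow arrays alone and in the reduced fit. In spleen 9 were lower, 2 higher and 6 not called, with a median of -0.18 that moved to 0.08 over the median of each gene's probe sets. Differences lay below 0 for 11, above 0 for 1 and not called for 5.

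Rag1 encodes the recombinase that cuts immunoglobulin genes in precursors. Its vehicle marrow arrays gave 9.82, 9.94, 10.48, 10.19 and 9.75 and 2BE marrow arrays 8.78, 7.77, 8.0, 7.40 and 8.63. Vehicle spleen arrays gave 4.06, 3.89, 4.04, 4.03 and 4.10 and 2BE spleen arrays 4.14, 4.34, 4.03, 4.03 and 3.97. The marrow arms were almost 1 unit apart, and the spleen values sat between the 3.22 and 7.9 percentiles of probe sets. Rag1 fell by 1.92 ± 0.19 in marrow (3.79-fold lower, adjusted p = 1.1e-06) and gave 0.08 ± 0.19 in spleen (adjusted p = 0.724). The difference was -2.0 ± 0.27 (adjusted p = 3.43e-06).

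Vpreb1, part of the surrogate light chain of the precursor receptor, gave 10.14, 10.82, 10.30, 10.35 and 10.43 on vehicle marrow arrays and 9.38, 8.83, 9.15, 8.99 and 9.56 on 2BE marrow arrays. In spleen it lay between 4.94 and 5.27 on all 10 arrays. The marrow arms were apart, with a response of -1.23 ± 0.12 (adjusted p = 1.1e-06). Igll1, the other surrogate chain, and Rag2, the partner of RAG1, fell by 1.20 and 1.09 in marrow, and neither was called in spleen (-0.09 and 0.14). On vehicle spleen arrays Vpreb1 lay between the 20.3 and 23.6 percentiles of probe sets and Rag2 between 29.3 and 33.1. Igll1 lay between 54.4 and 57.3. A fall from low spleen levels could be missed. Another probe set of Igll1 gave a difference of -0.31, against -1.12 for the one used.

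Ebf1 and Il7r, the lineage factor and the interleukin 7 receptor, fell alike in both organs. Ebf1, which mature B cells also express, fell by 1.35 in marrow and 1.52 in spleen, with a difference of 0.17 (adjusted p = 0.57). Il7r, which T cells also express, fell by 1.19 in marrow and 1.24 in spleen, with a difference of 0.05 (adjusted p = 0.898). Both were picked after their values were seen. The 2 members higher in spleen were Myb, described above, and Cecr2.

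Cecr2, a bromodomain protein of chromatin remodelling, had the largest change of the genes lower in marrow and higher in spleen. Vehicle marrow arrays gave 8.50, 8.66, 8.86, 8.76 and 8.58 and 2BE marrow arrays 7.83, 7.42, 7.51, 7.18 and 7.56. The vehicle spleen arrays gave 6.91, 6.91, 7.19, 7.00 and 7.17 and 2BE spleen arrays 7.93, 7.90, 7.77, 7.55 and 7.62. Neither pair of arms overlapped. The response was -1.17 ± 0.10 in marrow (adjusted p = 3.09e-07) and 0.72 ± 0.10 in spleen (adjusted p = 2.4e-06), the difference was -1.89 ± 0.15, and another probe set gave -1.70.

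The 250 bases upstream of 4 B lineage genes are shown to set genes called in marrow and not in spleen beside one called in both organs. Capitals mark CAGGTG or its reverse complement CACCTG, the E-box letters recognised by E proteins. The strands and sources are as for the earlier promoters and the genes were again picked after the matches were seen. Rag1 lies at chr2:101649533-101649782, Vpreb1 at chr16:16869256-16869505 and Igll1 at chr16:16863986-16864235, all on the minus strand, and Cd79a at chr7:24897247-24897496 on the plus strand.
Rag1: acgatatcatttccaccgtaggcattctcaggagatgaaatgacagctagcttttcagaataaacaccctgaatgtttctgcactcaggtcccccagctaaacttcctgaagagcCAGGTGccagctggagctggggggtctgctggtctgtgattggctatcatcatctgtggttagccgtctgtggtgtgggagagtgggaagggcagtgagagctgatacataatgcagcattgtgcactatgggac
Vpreb1: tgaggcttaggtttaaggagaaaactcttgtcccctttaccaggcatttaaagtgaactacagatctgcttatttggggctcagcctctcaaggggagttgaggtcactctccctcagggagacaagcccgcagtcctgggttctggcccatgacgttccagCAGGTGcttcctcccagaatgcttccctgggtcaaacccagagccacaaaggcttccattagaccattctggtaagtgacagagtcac
Igll1: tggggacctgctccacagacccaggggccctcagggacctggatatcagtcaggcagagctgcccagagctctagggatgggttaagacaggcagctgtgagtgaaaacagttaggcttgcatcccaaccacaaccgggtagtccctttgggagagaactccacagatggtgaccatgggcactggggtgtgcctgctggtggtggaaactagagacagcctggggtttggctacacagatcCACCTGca
Cd79a: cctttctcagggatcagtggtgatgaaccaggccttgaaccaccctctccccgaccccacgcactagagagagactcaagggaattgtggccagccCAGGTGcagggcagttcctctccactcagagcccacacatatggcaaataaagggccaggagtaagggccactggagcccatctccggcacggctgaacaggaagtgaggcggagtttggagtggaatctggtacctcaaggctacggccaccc
Each of the 4 held 1 match, at 135 to 130 bases upstream in Rag1, 88 to 83 in Vpreb1, 8 to 3 in Igll1 and 154 to 149 in Cd79a. The letters stood in 3 of 13 B precursor promoters (23.1%) and 8 of 16 B cell identity promoters (50%), against 17.1% of all 27025. They also stood in 5 of 12 T cell promoters (41.7%). Outside the lymphoid lists they ran from 0 of 9 endothelial promoters to 4 of 6 pancreatic acinar promoters (66.7%). High shares were thus not particular to B lineage lists. The EBF-like letters TCCCNNGGG and the octamer ATTTGCAT, searched on both strands, were each in 1 of 16 B identity promoters, against 5.53% and 1.61% of all.

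Most mature B cell genes fell in both organs. Of 23 measured B cell identity genes 22 were lower in marrow, with a median of -1.17 (2.25-fold lower), and 22 were lower in spleen, with a median of -1.49 (2.82-fold lower). The difference was not called for 15, above 0 for 6 and below 0 for 2. In the reduced fit 8 were above 0 and 2 below. Over all genes the shares of called differences were 24.7% above 0 and 19.1% below 0. Differences in the list ran from -1.04 to 0.93, and one that was not called does not show equal responses.

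Cd79a, the signalling chain of the B cell receptor, gave 11.04, 11.11, 11.39, 11.41 and 11.26 on vehicle marrow arrays and 9.82, 9.16, 9.31, 8.83 and 9.84 on 2BE marrow arrays. In spleen it gave 13.11, 13.01, 13.07, 12.94 and 13.13 with vehicle and 11.25, 10.54, 11.38, 11.18 and 11.83 with 2BE. The arms were more than 1 unit apart in each organ, and 2BE spread more than vehicle in both. Cd79a fell by 1.85 ± 0.18 in marrow (adjusted p = 1.21e-06) and by 1.82 ± 0.18 in spleen (adjusted p = 1.57e-08), and the difference was -0.04 ± 0.26 (adjusted p = 0.925). Ms4a1, which encodes CD20, fell by 1.69 and 1.63, Cd79b by 1.67 and 1.74, and Fcrla, an Fc receptor-like protein, by 1.87 and 1.71.

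Cr2 and Cd37, surface proteins of mature follicular cells, fell more in spleen, by 1.65 and 1.50 against 0.71 and 0.65 in marrow, and their differences of 0.93 and 0.85 were called. Ighm, the mu heavy chain, fell more in marrow, by 0.71 against 0.29, but its 10 other probe sets gave differences from -0.44 to 2.05. Ighm was named after its values were seen. Cd24a, which red cell precursors also carry, was the member that did not fall, with 14.30 to 14.48 on vehicle marrow arrays and 14.40 to 14.50 on 2BE marrow arrays. In spleen it ran from 13.25 to 13.76 with vehicle and from 14.54 to 14.83 with 2BE, so those arms were apart. It rose by 1.10 ± 0.08 in spleen (adjusted p = 4.25e-11) and gave 0.06 in marrow (adjusted p = 0.668).

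**Figure D5:**
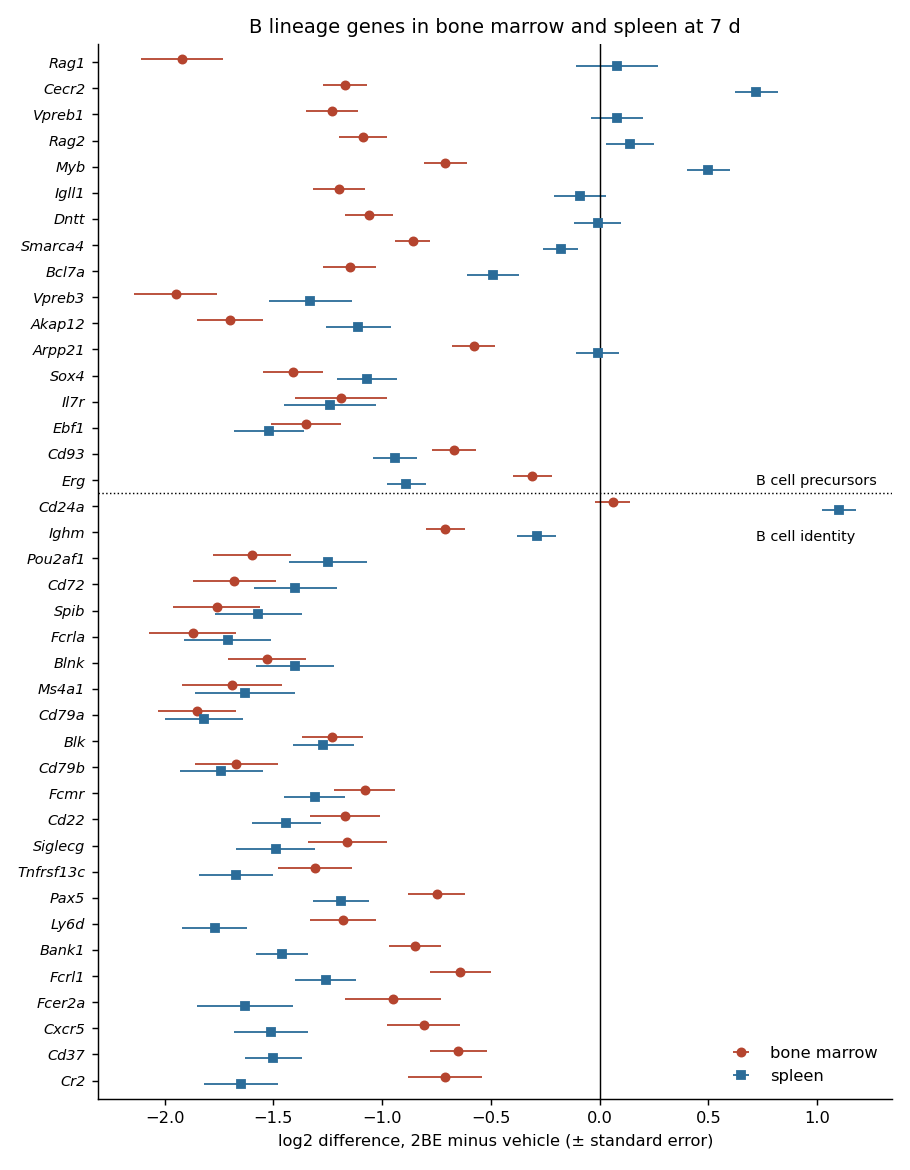
Log2 difference of 2BE minus vehicle, with its standard error, for 17 B cell precursor genes and 23 B cell identity genes in bone marrow (circles) and spleen (squares), ordered by the difference between organs within each list. The precursor genes Rag1, Vpreb1, Rag2 and Igll1 lie below -1 in marrow and near 0 in spleen, while most identity genes lie well below 0 in both. The spleen levels of Rag1, Vpreb1 and Rag2 were low with vehicle as well.

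Plasma cell and MHC class II genes fell more in spleen. All 12 measured plasma cell genes were lower in spleen, with a median of -1.11, and 5 were lower in marrow, with a median of -0.22; the difference was above 0 for 9. Xbp1, the factor of the secretory programme, fell by 1.14 in spleen and gave -0.11 in marrow (adjusted p = 0.495), and Prdm1, which drives plasma cell fate, fell by 1.08 and gave -0.05. All 11 measured MHC class II genes were lower in spleen, with a median of -1.23, and 10 in marrow, with a median of -0.48, and the difference was above 0 for 8.
H2-Ab1, a class II beta chain, gave 10.51, 10.38, 10.38, 10.44 and 10.52 on vehicle marrow arrays and 9.85, 9.70, 9.79, 9.81 and 10.25 on 2BE marrow arrays. In spleen it gave 13.24, 13.10, 13.11, 13.18 and 13.15 with vehicle and 11.77, 11.32, 11.99, 11.72 and 12.06 with 2BE. The arms were apart in both organs and wider apart in spleen. The response was -0.57 ± 0.11 in marrow (adjusted p = 0.00108) and -1.39 ± 0.11 (adjusted p = 2.49e-10). The difference was 0.82 ± 0.15 (adjusted p = 0.000172).

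T cell and NK genes fell in spleen, with few calls in marrow. Of 21 measured T cell genes 18 were lower in spleen, with a median of -1.27 (2.42-fold lower), and 3 in marrow, with a median of -0.18. The marrow count was 8 in the fit of marrow arrays alone and also 8 without spleen 2BE replicate 2. The difference was above 0 for 16 and below 0 for 1. The 3 lower in marrow were Ccr7, Cd2 and Lef1, at -0.89, -0.99 and -0.86. The 1 difference below 0 was that of Zap70, a T cell receptor kinase, at -0.39, and its other 2 probe sets gave 0.23 to 0.79. Ccr7, Cd2, Lef1 and Zap70 were named after their values were seen.

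Cd3g, a chain of the T cell receptor complex, gave 6.01, 6.12, 5.78, 5.89 and 6.02 on vehicle marrow arrays and 5.53, 5.59, 5.63, 5.57 and 5.54 on 2BE marrow arrays. In spleen Cd3g gave 10.44, 10.41, 10.18, 10.14 and 10.24 with vehicle and 8.58, 7.10, 8.79, 8.59 and 9.05 with 2BE. Spleen 2BE replicate 2 was the lowest by more than 1 unit, and the arms were apart in both organs. The response was -1.86 ± 0.22 in spleen (adjusted p = 1.37e-07) and -0.39 ± 0.22 in marrow (adjusted p = 0.261, or 0.000624 in the fit of marrow arrays alone). The marrow values lay between the 34.1 and 43.5 percentiles of probe sets.

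The NK list had no member called in marrow by limma, with 0 of 14 at an unadjusted p under 0.05, and all 14 were lower in spleen. Its median was -0.08 in marrow and -1.31 in spleen (2.49-fold lower), and the difference was above 0 for all 14, or 13 in the reduced fit. Of the 14, 2 were lower in the fit of marrow arrays alone.
Gzma, the granule protease granzyme A, gave 9.02, 8.42, 8.47, 8.67 and 8.40 on vehicle marrow arrays and 8.46, 8.58, 8.52, 9.16 and 8.56 on 2BE marrow arrays. In spleen it gave 11.34, 10.62, 11.27, 10.75 and 10.82 with vehicle and 8.59, 8.73, 9.41, 9.41 and 9.19 with 2BE. The marrow arms overlapped and the spleen arms were more than 1 unit apart. The response was 0.06 ± 0.18 in marrow (adjusted p = 0.87) and -1.90 ± 0.18 in spleen (adjusted p = 4.71e-09), and the difference was 1.96 ± 0.25 (adjusted p = 2.07e-06). Klra8 (Ly49H), Klrd1 (CD94) and Ncr1, receptors of NK cells, fell by 2.25, 1.58 and 1.26 in spleen and gave -0.05, -0.10 and -0.24 in marrow. Clec2d, a ligand of an NK inhibitory receptor that B cells also carry, fell by 2.54 in spleen (adjusted p = 5.86e-12) and gave -0.33 in marrow (adjusted p = 0.184).

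Genes of lymphocyte homing and survival fell in spleen with few calls in marrow. Of 10 measured homing and survival genes 9 were lower in spleen and 2 in marrow, and the difference was above 0 for 4, or for 8 without spleen 2BE replicate 5. The 2 in marrow were Ltb and Il7r, a receptor counted above among the B cell precursor genes. The marrow count was 1 without any of marrow vehicle replicates 1, 3, 4 and 5 or marrow 2BE replicates 2 and 3. Cxcl12 and Cxcl13, chemokines of stromal and follicular niches, fell by 1.05 and 1.03 in spleen and gave -0.25 and -0.02 in marrow. The other 2 probe sets of Cxcl12 gave spleen responses from -1.15 to 0.26. Ltb, lymphotoxin beta, fell by 1.55 in spleen and gave -0.57 in marrow, a call lost under 7 of 33 alternatives.

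Genes of other resident cells of the spleen were also lower with 2BE, with few calls in marrow. Of 14 megakaryocyte and platelet genes 12 fell in spleen, with a median of -1.09, and 0 were called in marrow by limma, also in the fit of marrow arrays alone. At an unadjusted p under 0.05, 2 were lower in marrow. The difference was above 0 for 12.
Pf4, platelet factor 4, gave 13.19, 13.24, 13.20, 13.18 and 13.37 on vehicle marrow arrays and 13.13, 12.83, 13.21, 13.17 and 13.19 on 2BE marrow arrays. In spleen Pf4 gave 11.69, 11.26, 11.75, 11.60 and 11.72 with vehicle and 10.02, 10.08, 10.57, 10.32 and 10.34 with 2BE. The marrow arms overlapped and the spleen arms did not, and the difference was 1.21 ± 0.14 (adjusted p = 7.23e-07). Endothelial genes fell in spleen in 13 of 13 members, with a median of -0.84, and in marrow in 1. Stromal genes fell in 11 of 13 in spleen and 4 of 13 in marrow (the spleen median of -0.89 became -0.41 over the median of each gene's probe sets), monocyte genes in 8 of 10 and 1 of 10, macrophage genes in 10 of 16 and 2 of 16, and stem and progenitor genes in 10 of 13 and 2 of 13. Counting calls in either direction, the macrophage count in marrow became 1 without any of marrow vehicle replicates 3, 4 and 5 or marrow 2BE replicate 2, 4 without marrow 2BE replicate 1 and 5 without marrow 2BE replicate 5. The monocyte count in marrow became 2 without marrow vehicle replicate 1, marrow 2BE replicate 1 or 5 or spleen 2BE replicate 2, and 3 without spleen 2BE replicate 5. The endothelial count in marrow became 2 without spleen vehicle replicate 1 or 2 or spleen 2BE replicate 3. Tcf21, a factor of spleen stroma, fell by 1.51 in spleen, and its marrow arrays lay between 3.94 and 4.31. Timd4 and Marco, receptors of splenic macrophages, fell by 1.14 and 1.34 in spleen and gave -0.07 and -0.00 in marrow.

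Most neutrophil primary granule genes rose in spleen. Of 7 members 5 rose and 2 fell in spleen, with a median of 0.62, and 0 were called in marrow by limma, with a median of -0.25 and 5 lower at an unadjusted p under 0.05. In the fit of marrow arrays alone 1 fell, and 5 fell without marrow 2BE replicate 5. The difference was below 0 for 5.
Mpo, myeloperoxidase, gave 13.88, 13.77, 13.82, 13.84 and 13.85 on vehicle marrow arrays and 13.70, 13.55, 13.54, 13.63 and 13.91 on 2BE marrow arrays. In spleen it gave 8.17, 7.78, 8.23, 8.36 and 7.89 with vehicle and 8.68, 9.06, 9.10, 8.86 and 8.89 with 2BE. The marrow arms overlapped through 2BE replicate 5 and the spleen arms were apart. The spleen rise was 0.83 ± 0.10 (adjusted p = 1.52e-07) and the difference -1.0 ± 0.14 (adjusted p = 6.15e-06). Ctsg and Elane, proteases of the same granules, rose by 0.88 and 0.62 in spleen. Gfi1, a repressor that stem cells and lymphocytes also use, was among the 2 that fell, by 0.82, and was named after its values were seen. Genes of the later granules did not share that rise. Of 14 members 0 were higher and 2 lower in spleen, with a median of -0.15, and 0 were called in marrow by limma, with 1 higher at an unadjusted p under 0.05. The difference was above 0 for 2, and leaving out 1 array at a time gave 1 to 4 calls in spleen.

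Bone matrix genes fell in marrow. Of 11 measured bone cell genes 6 were lower in 2BE marrow, with a median of -0.41, and 2 were lower and 1 higher in spleen, with a median of -0.06. The spleen count was 1 in all without spleen vehicle replicate 5, spleen 2BE replicate 2 or spleen 2BE replicate 4. Differences lay below 0 for 5 members, and for 3 without marrow 2BE replicate 2 or without spleen 2BE replicate 3.
Col1a1, the main collagen chain of bone, gave 13.77, 13.80, 13.64, 13.78 and 14.09 on vehicle marrow arrays and 12.36, 11.05, 11.23, 11.67 and 13.32 on 2BE marrow arrays. In spleen Col1a1 gave 8.60, 8.86, 8.75, 8.95 and 8.82 with vehicle and 8.07, 8.37, 8.40, 8.44 and 8.50 with 2BE. The arms were apart in both organs, with marrow 2BE replicate 5 closest to vehicle. The response was -1.89 ± 0.27 in marrow (3.7-fold lower, adjusted p = 5.04e-05) and -0.44 ± 0.27 in spleen (adjusted p = 0.144, or 0.000902 in the fit of spleen arrays alone), and the difference was -1.45 ± 0.38 (adjusted p = 0.00359). Sparc, another matrix protein, fell in both, by 1.53 and 0.76, and Sp7, the osteoblast factor osterix, fell by 0.44 in marrow and gave 0.20 in spleen, a call lost under 3 of 33 alternatives. The difference for Sparc was -0.77, lost under 14 of 32 alternatives, and its other probe sets gave differences from -0.63 to -0.02.

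A small set of genes was called in opposite directions. Beside Cecr2 and Myb, Tifa (an adaptor of NF-kB signalling) and Xrcc6 (the Ku70 DNA repair subunit) fell by 0.87 and 0.47 in marrow and rose by 0.67 and 0.69 in spleen. Ahr, the aryl hydrocarbon receptor, went the other way. Its vehicle marrow arrays gave 7.35, 7.06, 7.10, 7.35 and 7.19 and 2BE marrow arrays 7.56, 7.85, 7.50, 7.84 and 7.89. Vehicle spleen arrays gave 9.56, 9.16, 9.18, 9.30 and 9.30 and 2BE spleen arrays 8.16, 8.20, 8.76, 8.48 and 8.71. The arms were apart in both organs. Ahr rose by 0.52 ± 0.11 in marrow (adjusted p = 0.00401) and its spleen response was -0.84 ± 0.11 (adjusted p = 1.24e-06), with a difference of 1.36 ± 0.16, but a second probe set gave 0.04. Serpinb6b rose by 0.67 in marrow and fell by 0.46 in spleen. Mgp (matrix Gla protein) gave 0.81 in marrow and -0.58 in spleen, calls lost under 1 and 7 of 33 alternatives. Hadhb (a fatty acid oxidation enzyme) gave 0.45 in marrow and -0.33 in spleen with the probe set used. With the probe set highest over 44 arrays Hadhb gave 0.10 in marrow (adjusted p = 0.296) and -0.02 in spleen (adjusted p = 0.724), with a difference of 0.12 (adjusted p = 0.237). With the median over probe sets it gave 0.15 and -0.02, also not called.

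Fat cell genes varied among the vehicle spleen arrays. Adipoq, the adipocyte hormone adiponectin, gave 4.15, 10.87, 4.25, 9.05 and 8.80 on vehicle spleen arrays and 4.29, 4.51, 4.18, 4.27 and 4.18 on 2BE spleen arrays. The vehicle spleen arrays thus fell into a low and a high set. The adipocyte list mean was 5.52, 9.12, 5.67, 7.99 and 7.75 on the same vehicle arrays, beside 5.58 to 6.04 with 2BE. The difference for Adipoq was 2.62 ± 1.18 (adjusted p = 0.0765). It was 3.41 in the reduced fit (adjusted p = 0.0106) and 3.44 without spleen vehicle replicate 1 alone (adjusted p = 0.00872). Fabp4, a fatty acid binding protein of fat cells, fell by 2.32 in spleen with a called difference of 2.15 (adjusted p = 0.0214), though its other 3 probe sets ranged from -0.22 to 2.42. Whether the fat cell levels of the vehicle spleen arrays take part in other spleen differences was not tested.

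Genes of pancreatic acinar cells, which make digestive enzymes, were in part higher in 2BE spleen. Of 6 measured members 4 were higher and 0 lower there, with a median of 0.30, and 1 was higher in marrow, with a median of 0.07. The list mean was 6.82 to 6.98 on vehicle spleen arrays and 7.15 to 7.49 on 2BE spleen arrays, beside 7.02 to 7.16 and 7.10 to 7.18 in marrow. Cela1, an elastase family gene, rose by 1.17 in spleen (adjusted p = 1.47e-13) and gave 0.20 in marrow (adjusted p = 0.0276, lost under 6 of 33 alternatives). Of 7 skeletal muscle genes 1 was higher and 1 lower in spleen and 1 was higher in marrow. The part of these cells in other spleen differences was not tested.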

How the data were processed

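RNA of the 20 bone marrow and spleen samples at 7 d was measured on Affymetrix expression arrays. The authors deposited 1 intensity per probe set, on a linear scale, processed with RMA per the submitters' processing notes; the version, and whether tissues were normalized together, are not given in the sources used here. Deposited intensities ran from 6.16 to 47797.8. Of 45101 probe sets, 34945 had 1 gene symbol, 932 several and 9160 none in the platform table. Values were taken as log2(intensity + 1), and a gene with several probe sets was represented by the one of highest average across the 20 arrays. Precision is limited by 5 arrays a group. limma 3.58.1 (R 4.3.3) fitted the 4 group means over all 20 arrays, with 16 residual degrees of freedom, and tested both responses and their difference. The test was checked on simulated data. Alternatives numbered 34.

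Of 475 entries in 30 gene lists, 426 were measured. Members and lists were chosen with earlier results of these data known. Named genes were up to 10 a direction with the largest called difference and organs fully apart, up to 6 a direction called the same or opposite way, up to 4 a list and a fixed set; of the 164 taken, those named were selected with their values known, and the 10 genes outside the rule are said to be so. Promoters came from RefSeq (GRCm38.p6), 1 entry a gene.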

Additional observations from a re-analysis of the deposited data

Results flagged for a closer look

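Of 380 groups of 5 arrays tested for the named genes, 39 held 1 array set apart from the others by a gap of over 0.71 of the group's range. Chance alone marks about 1 in 20 groups, and the genes are not independent of each other.

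Spleen vehicle replicate 1 accounted for 21 of the 39, each time as the lowest array. Its levels, as log2(intensity + 1), were Abcb10 (9.16), Alas2 (12.28), Apol11b (7.03), Ccnb2 (8.48), Ccne2 (6.45), Cd24a (13.25), Ect2 (7.02), Epb42 (5.81), Hbb-b2 (11.39) and Hemgn (9.15) for the first of these genes. They were Icam4 (6.18), Kel (7.64), Kif11 (7.05), Mki67 (10.51), Nfe2 (8.22), Prc1 (7.75), Slc43a1 (6.42), Slc4a1 (10.20), Sox6 (6.25), Trim10 (8.48) and Urod (10.13) for the rest. All but Cd24a and Apol11b belong to the erythroid or cell division lists. What sets the array apart was not tested.

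Spleen 2BE replicate 5 was the lowest of its group for Kel (12.27), Nfe2 (11.82), Slc43a1 (10.28) and Sox6 (11.33). Spleen 2BE replicate 2 was lowest for Cd3g (7.10), and spleen 2BE replicate 1 was highest for Ugt8a (9.04).

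In marrow no array led in the same way. Among 2BE arrays, replicate 2 was lowest for Bcl11a (8.63), Pf4 (12.83) and Tfrc (13.55). Replicate 5 was lowest for Epor (10.76) and highest for H2-Ab1 (10.25), replicate 4 was highest for Gzma (9.16) and replicate 1 was highest for Tcf21 (4.31). Among vehicle arrays, replicate 1 was highest for Kit (9.51) and Xbp1 (11.84) and lowest for Slc11a2 (8.63). Replicate 2 was lowest for Clec2d (8.33) and replicate 5 highest for Elane (13.48).

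The response differed between the organs for 7958 genes by the test of the difference itself. Of the named genes, those called in opposite directions had differences of -1.89 for Cecr2, -1.54 for Tifa, -1.21 for Myb, -1.15 for Xrcc6 and -0.64 for Sp7, which were lower in 2BE marrow and higher in 2BE spleen. The differences were 1.39 for Mgp, 1.36 for Ahr, 1.13 for Serpinb6b and 0.77 for Hadhb, which went the other way. With the probe set highest over 44 arrays the Hadhb difference was 0.12 (adjusted p = 0.237), and with the median over probe sets 0.18 (adjusted p = 0.0702).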

How the results depend on the processing

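With 1 choice changed at a time, the counts of called genes kept within 1.5 times of those reported, except in marrow, where array weights by group gave 3758 and the 10 marrow arrays alone gave 3681. Leaving out 1 array gave 1727 to 2992 in marrow, 11464 to 13195 in spleen and 7233 to 9456 for the difference. The reduced fit gave 3268, 12656 and 8921. Centring arrays on their medians raised the share of marrow calls above 0 from 50.5% to 61.2% (1444 higher and 915 lower), and a low-value filter, which left 12179 genes, moved that share in spleen from 51.1% to 40.4%.

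Among named genes 3 turned direction with the choice of probe set. Bcl11a in spleen became 0.09, and its difference -0.10, both with the probe set highest over 44 arrays and with the median over probe sets. That median gave -0.49 for Zap70 in spleen, and differences of 0.64 for Zap70 and 1.45 for Ighm. It also lowered the stem and progenitor difference from 0.52 to 0.12 and the stromal one from 0.80 to 0.12.

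The labels do not say that a replicate number marks a mouse or batch, so the numbers were not taken to pair arrays. Same-numbered pairs correlated from -0.158 to 0.352, which cannot decide whether a number marks a shared mouse or batch. Median correlations of same-numbered against other pairs were 0.048 against 0.006 between organs with vehicle, 0.102 against -0.018 with 2BE, 0.146 against -0.052 between marrow arms and 0.171 against -0.05 between spleen arms. With the number as a block within each organ, 8249 differences, 2423 marrow genes and 12576 spleen genes were called. A random block of arm and number (consensus correlation 0.149) gave 8751 differences. The number of arrays, 5 a group, limits the precision of marrow calls.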
